A study of Homo sapiens with 42 samples.

Results

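The effect of a HIF-1α protein that cannot pair with its partner was examined by comparing 3 HIF-1αDM libraries with 3 WT libraries, 6 of the 42 polyA RNA-seq libraries of the series. The 6 libraries were chosen by their labels, from the first of 2 RNA batches, which held 27 libraries. WT was unmodified 786-O, an established human clear cell renal cell carcinoma line. It lacks functional VHL, the ubiquitin ligase that marks HIF-α for destruction, so its HIF-2α is stable at normal oxygen, and it makes no functional HIF-1α. HIF-1αDM was the same line carrying a V5- and HaloTag-fused HIF-1α with the dimerization substitutions R170A and V191D, driven by the weak L30 promoter and inserted by PiggyBac transposition with puromycin selection. A further 3 lines of the same batch, built with the same vector, were used for direct comparisons: HIF-1α (the functional protein), HIF-1α R30E (a substitution in its DNA-binding domain) and HIF-2αDM (the analogous dimerization substitutions R171A and V192D in HIF-2α). The genotype label of the HIF-2αDM libraries named HIF-1α, whereas their titles named HIF-2α, and the titles were followed. Each line had 3 biological replicates of 1 selected line. The batch also held 3 libraries each of a functional HIF-2α line and of HIF-2α R27E (a substitution in the DNA-binding domain), both made with the same vector. Its last groups were knock-in clones without a transgene. HIF-1β KIN had the HaloTag on the endogenous gene of the partner subunit HIF-1β. In HIF-2α KIN the tag was on the gene of HIF-2α instead. All 27 libraries entered the main model, so these groups also shaped its estimate of spread. No line with an empty vector was analysed here, so the mutant protein cannot be told apart from HaloTag expression, puromycin selection or insertion of the vector in the comparison with WT.

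HIF-1α and HIF-2α (encoded by EPAS1) are transcription factors of the bHLH-PAS family. Each must pair with HIF-1β (encoded by ARNT) to bind the hypoxia response element, whose core reads ACGTG or GCGTG, beside genes for glycolysis, angiogenesis, pH control and mitophagy. In renal carcinoma that has lost VHL, HIF-2α drives growth and HIF-1α opposes it. The comparison asks which transcripts differ when a HIF-1α that cannot pair with HIF-1β is present.

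Total counts ran from 66420117 to 101186554 over the 6 libraries, and 3 counts corresponded to a CPM of 0.0296 to 0.0452. Library values below are normalised counts, that is counts scaled by the TMM factors to the mean library size of the batch. The 2 most abundant kidney and carcinoma markers listed were CD70 (70965 to 112170 normalised counts in the 6 libraries) and KRT8 (106870 to 160550). Not every member of that list was abundant. LRP2 was too low to test, with at most 6 raw counts in any of the 27 libraries. CA9 was nearly absent from both lines, as given below. Of 16 markers of leukocytes, endothelium, fibroblasts, liver and glia, 7 were too low to test, none with more than 4 raw counts in any of the 27 libraries (among them PTPRC, CD3E, LYZ, PECAM1, DCN and ALB), and none of the other 9 was called (median log2 fold change 0.30). In bulk RNA, fewer cells of a type and less RNA per cell cannot be told apart.

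The transgene was visible in the counts of the HIF1A gene. HIF1A (chr14:61695513-61748259 on hg38) had 238, 231 and 257 normalised counts in the WT libraries and 2583, 2148 and 2017 in the HIF-1αDM libraries. The groups did not overlap, and the log2 fold change was 3.21 ± 0.25 (SE, n = 3 against 3, edgeR adjusted p = 1.70e-08). Reads of the transgene count on HIF1A, so the value sums endogenous and inserted RNA. Each HIF-1αDM library lay below those of the functional HIF-1α line, at 2786, 3082 and 3245. The log2 difference was -0.43 (95% interval -0.90 to 0.03) and was not called. Of the 9 tested members of the list of HIF subunits and oxygen sensors, HIF1A alone was called. EPAS1 had 12563, 14335 and 16596 normalised counts in WT and 10161, 12864 and 11365 in HIF-1αDM (log2 fold change -0.34, adjusted p = 0.67). ARNT, the partner subunit, differed by -0.29 and the HIF hydroxylases EGLN1 and EGLN3 by 0.07 and -0.08, none of them called.

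**Figure D1:**
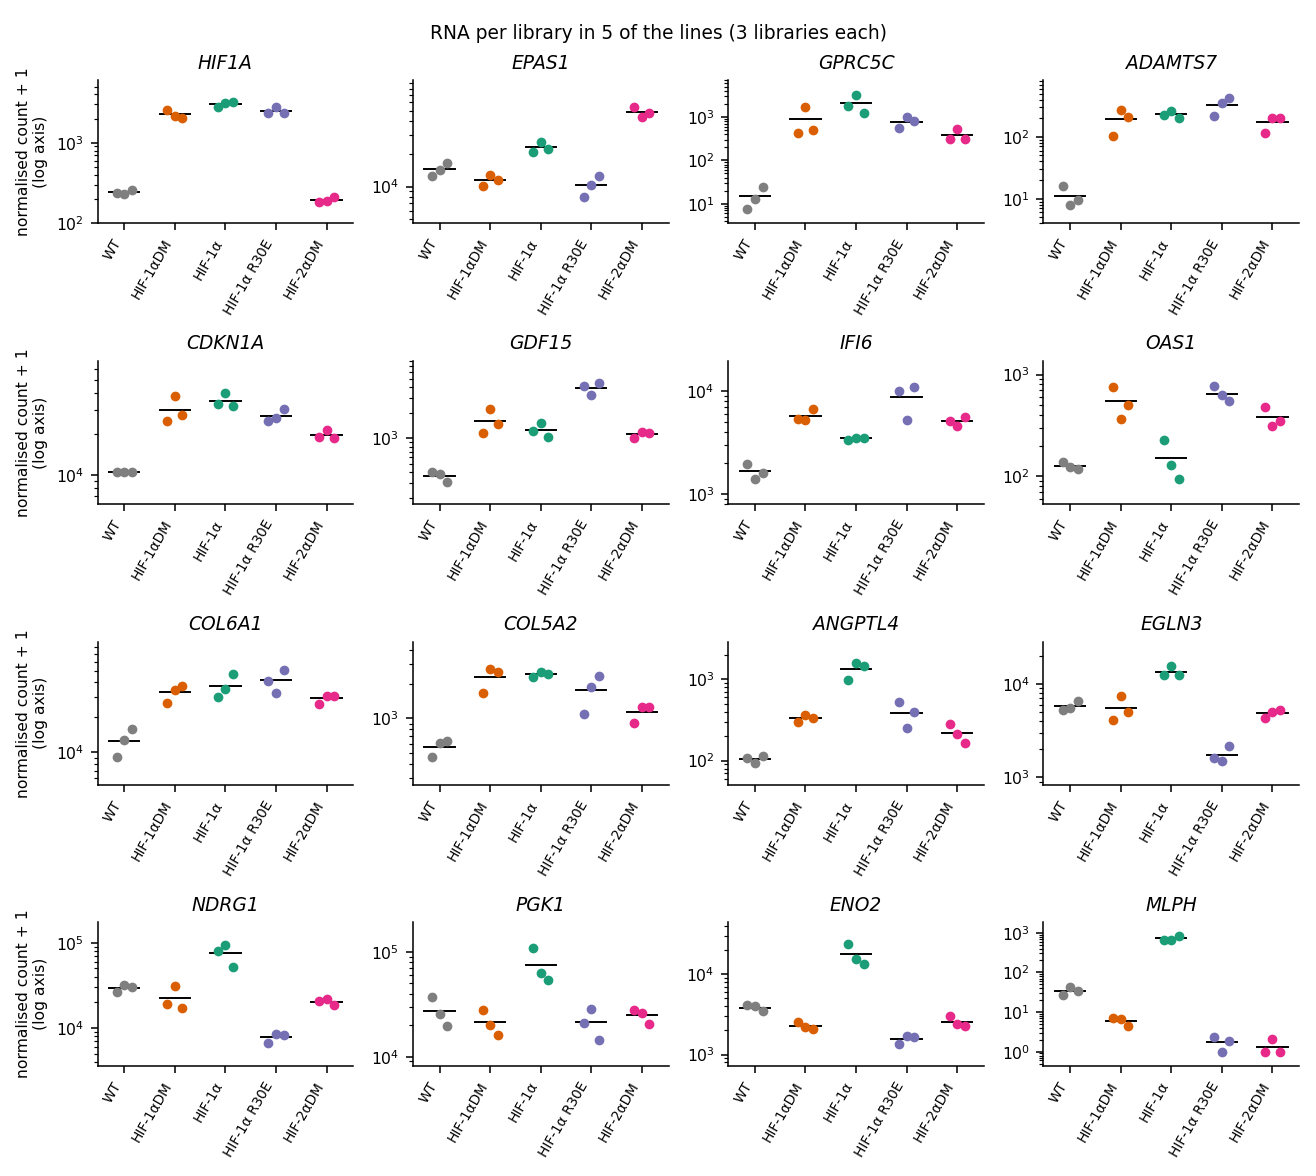
Normalised counts plus 1 (log axis) of 16 genes in the 3 libraries (points) and their mean (bar) of WT, HIF-1αDM, HIF-1α, HIF-1α R30E and HIF-2αDM. HIF1A lay between 2017 and 2583 in HIF-1αDM against 231 to 257 in WT, while EGLN3, NDRG1, PGK1 and ENO2 lay higher in the HIF-1α line than in HIF-1αDM.

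The calls between HIF-1αDM and WT ran almost wholly upward. Of 23410 genes tested, 106 (0.453%) were called higher and 1 (0.00427%) was called lower. A gene was counted as called where the adjusted p did not exceed 0.01 and the fold was 2 or more. The median log2 fold change of the 106 was 1.86 (1.85 with the 3 genes at or under 3 counts in every WT library set to their lower bound), against 0 over all genes tested. The fold exceeded 4 for 46 of them and lay between 2 and 4 for 60. In all 106 the 3 HIF-1αDM libraries lay above the 3 WT libraries, a separation seen in 8.79% of all tested genes upward and 6.99% downward. At an unadjusted p under 0.05, 1293 genes were higher and 747 lower. With the replicate number as a block, 196 genes were called higher (0.837%), the 106 among them, and 11 lower (0.047%). Leaving out 1 library gave 51 (WT replicate 1), 58 (WT replicate 2), 67 (WT replicate 3), 110 (HIF-1αDM replicate 1), 61 (HIF-1αDM replicate 2) and 70 (HIF-1αDM replicate 3) genes higher, and 46 of the 106 were called in each of the 6 fits that left out a library.

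The called genes were richer in G and C than other genes. Their median transcript GC content was 56.54%, against 48.73% for the protein-coding genes tested, and, of genes with a mean normalised count of at least 50 ranked by GC content, 0.316% of the 2534 lowest and 1.74% of the 2534 highest were called higher. WT libraries themselves differed along GC content: the median log2 deviation from the WT mean in the 2534 highest was -0.19 in replicate 1, -0.01 in replicate 2 and 0.20 in replicate 3. The part of GC content in the calls was not tested further than by a correction. With a correction for GC content, 99 of the 106 were still called.

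**Figure D2:**
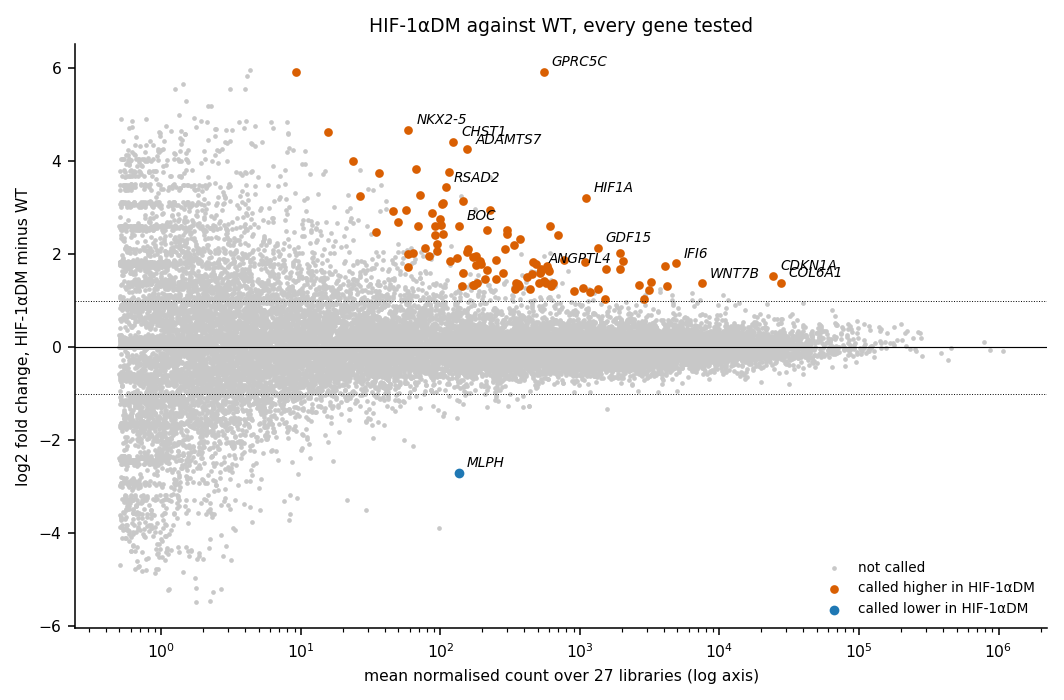
Log2 fold change of HIF-1αDM minus WT against the mean normalised count over 27 libraries (log axis), with a point for each of 23410 genes and dotted lines at a fold of 2. The 106 genes called higher (orange) run up to CDKN1A and COL6A1 in abundance, and MLPH is the 1 gene called lower (blue).

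Among called genes with a mean normalised count of at least 50, GPRC5C changed most. It encodes an orphan receptor of the retinoic acid-inducible G protein-coupled group (chr17:74424851-74451653). It had 6.61, 11.6 and 23.9 normalised counts in WT and 426, 1707 and 508 in HIF-1αDM, a log2 fold change of 5.92 ± 0.59 (adjusted p = 8.74e-07). HIF-1αDM replicate 2 stood above the others, and the call held in each leave-one-out fit. GPRC5C was the 1 of 8 genes with RNA results shown in the study that was called. CHST1, a sulfotransferase of keratan sulfate, rose from 1.65, 4.84 and 7.73 to 98.6, 121 and 98.8 (log2 fold change 4.42, adjusted p = 8.74e-07). NKX2-5, a homeobox factor of heart development, rose from 3.30, 0.97 and 3.51 to 67.7, 67.3 and 78.7 (log2 fold change 4.67, adjusted p = 1.74e-04). ADAMTS7, a secreted metalloprotease, rose from 14.9, 6.77 and 8.43 to 102, 267 and 212 (log2 fold change 4.25, adjusted p = 2.03e-06). SULF2, which trims sulfate from heparan sulfate, and the synaptic vesicle protein SYNGR1 rose by 3.83 and 3.77 on the log2 scale. CPA4, a carboxypeptidase, ITGA4, an integrin chain, SLC26A11, an anion transporter, and BOC, a Hedgehog co-receptor, rose by 3.13, 3.10, 2.70 and 2.61. The membrane proteins TMEM63C and ELFN1 rose by 2.95 and 2.94. The calls of TMEM63C, ELFN1 and BOC were each lost without WT replicate 1, WT replicate 2 or HIF-1αDM replicate 2, and those of TMEM63C and ELFN1 also without WT replicate 3 or HIF-1αDM replicate 3 (adjusted p up to 0.066, 0.079 and 0.031 for TMEM63C, ELFN1 and BOC).

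**Figure D3:**
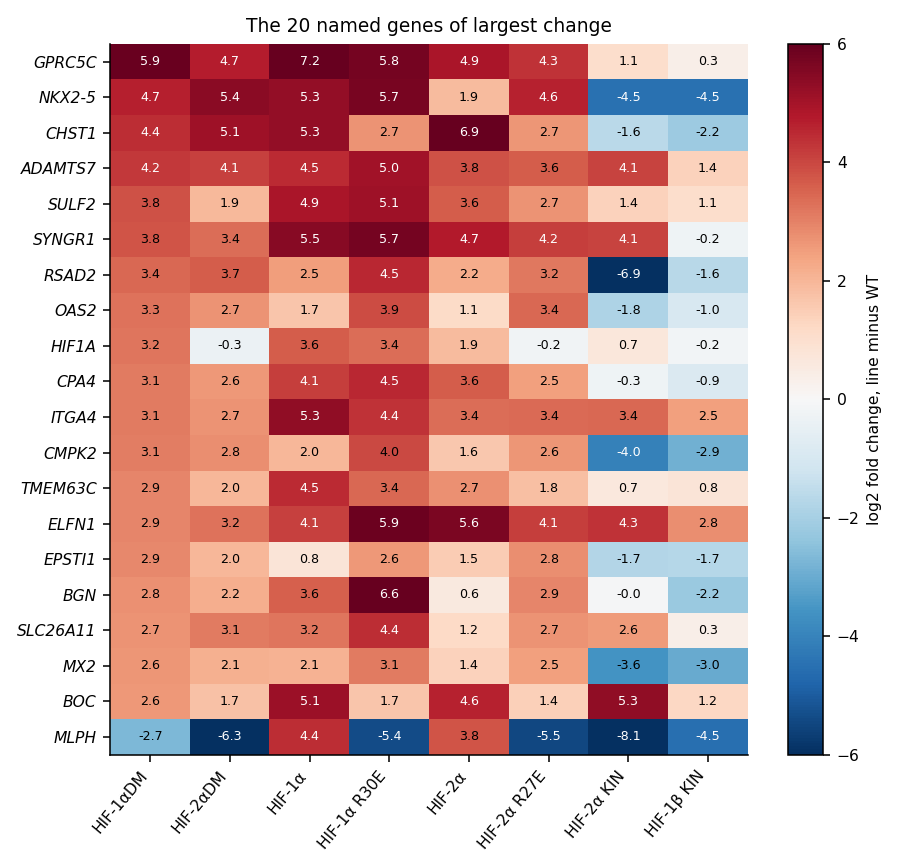
Log2 fold change from WT of the 20 genes of largest change (rows) in HIF-1αDM and in the 7 other modified lines of the batch (columns), all measured against the same 3 WT libraries, with colour saturating at 6 either way. GPRC5C reads 5.92 in HIF-1αDM and MLPH -2.71, and the WT libraries enter every column.

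Interferon-stimulated genes were the list with the most called members. Of 22 tested, 7 were called higher and none lower (OAS1, OAS2, OASL, MX1, MX2, IFI6 and RSAD2), against 0.453% of all genes, and the list's median log2 fold change was 1.14, against 0 over all genes. With the replicate block 10 were called, the added ones, named after their values were seen, being IFI27, IFI44L and ISG15. IFI6, an interferon-induced mitochondrial protein, had 1966, 1409 and 1578 normalised counts in WT and 5335, 5217 and 6701 in HIF-1αDM (log2 fold change 1.80 ± 0.24, adjusted p = 6.85e-05). RSAD2, the antiviral enzyme viperin, rose from 9.91, 21.3 and 13.4 to 132, 182 and 166 (log2 fold change 3.43, adjusted p = 1.30e-04). OAS1, which makes oligoadenylate on sensing double-stranded RNA, rose from 139, 123 and 118 to 758, 366 and 506 (log2 fold change 2.10, adjusted p = 1.90e-03). MX1, a dynamin-like antiviral GTPase, rose from 167, 191 and 213 to 569, 337 and 513 (log2 fold change 1.31, adjusted p = 4.86e-03). Outside the list, CMPK2 and EPSTI1, both also induced by interferon, rose by 3.08 and 2.88. OAS3, an abundant member of the list, had 9404, 11865 and 14012 in WT and 18554, 9904 and 14549 in HIF-1αDM (log2 fold change 0.29, adjusted p = 0.82). IFIT1, named after its values were seen, differed by 1.11 (adjusted p = 0.15). The rise was not particular to HIF-1αDM. The list's median difference was -0.34 from HIF-1α R30E and 0.13 from HIF-2αDM, with no member called (1 higher than in HIF-2αDM with the block). From HIF-1α the median difference was 0.77, with 3 members called higher.

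The number of interferon calls varied with the libraries used. It was 3, 2 and 3 without WT replicate 1, 2 and 3, and 3, 5 and 4 without HIF-1αDM replicate 1, 2 and 3, while the median stayed between 1.08 and 1.31. IFI6 and RSAD2 were called in all 6 fits, MX2 in 5, and OAS2 and OASL in none (adjusted p up to 0.072 and 0.054). OAS1 was not called without any 1 WT library or without HIF-1αDM replicate 1 (adjusted p up to 0.020), and MX1 was called only without HIF-1αDM replicate 2 (adjusted p up to 0.059 in the others).

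Interferon acts through factors that bind paired GAAA repeats, so promoters of 250 bases before to 50 after the start were read from RefSeq (GRCh38.p14) and searched on both strands for GAAANNGAAA. A promoter was found for 76 of the 106 genes and 14 of the 22 in the list. The motif was in 11 of those 14 (78.6%), in 5 of the 76 (6.58%), in 2.91% of protein-coding genes tested and in 3.65% of all 27305 promoters. Of the 4 called members of the list with a promoter, IFI6 and MX1 held it, and OAS1 and RSAD2 did not. Of the members not called that had a promoter, only IRF9 lacked it, so the motif did not mark the called members. The IFI6 and MX1 promoters are shown to place the element, in capitals, beside genes whose RNA is given above. The IFI6 stretch (chr1:27672256-27672368, minus strand) holds 3 copies and the MX1 stretch (chr21:41420549-41420598, plus strand) 1, each read 5′ to 3′.
IFI6: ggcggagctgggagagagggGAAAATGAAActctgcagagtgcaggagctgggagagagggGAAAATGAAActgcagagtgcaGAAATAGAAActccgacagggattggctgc
MX1: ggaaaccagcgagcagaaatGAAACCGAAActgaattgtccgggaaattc

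**Figure D4:**
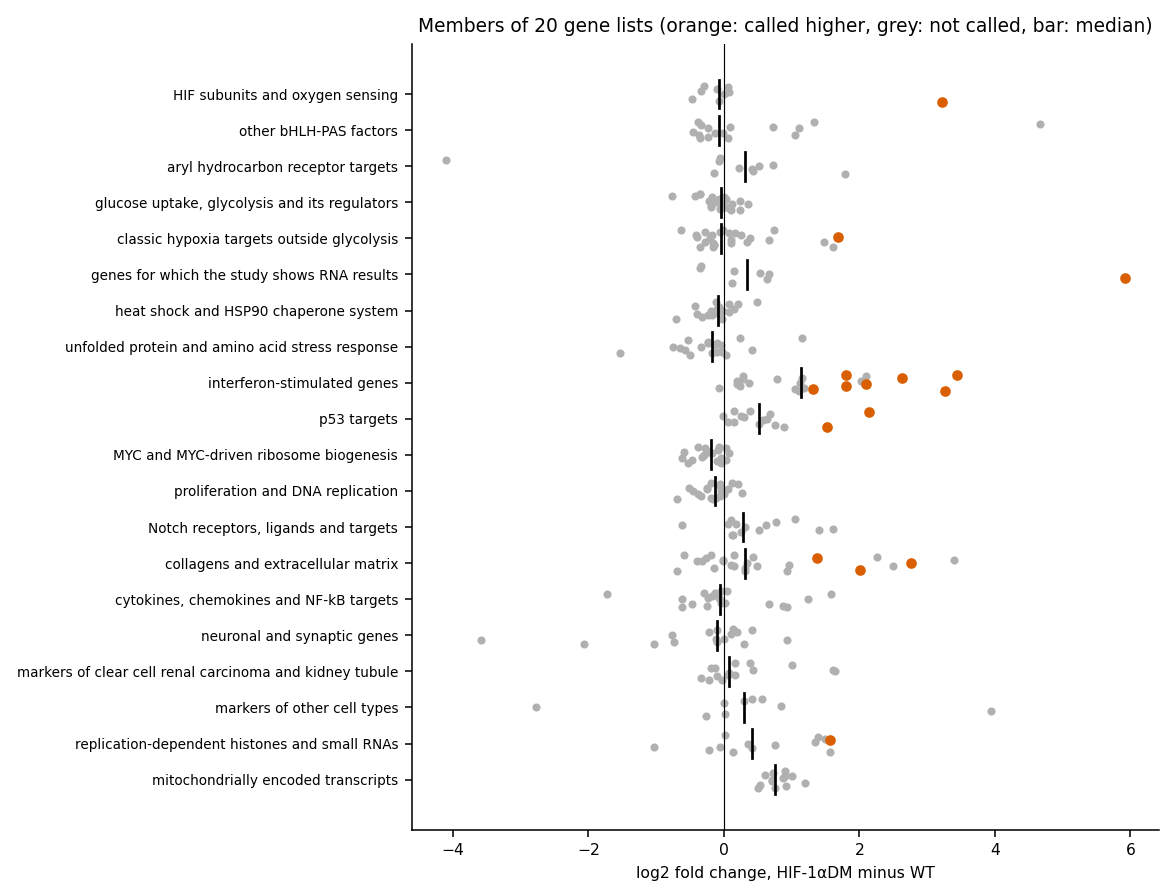
Log2 fold change of HIF-1αDM minus WT for each tested member of 20 gene lists, with called genes in orange, genes not called in grey and the list median as a bar. The interferon list has its median at 1.14 and 7 members called, whereas the glycolysis list has its median at -0.05 and none called.

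Among p53 targets, 2 of 15 were called higher, against 0.453% of all genes, and the list's median was 0.52, against 0 over all genes. CDKN1A, the cyclin-dependent kinase inhibitor p21, had 10443, 10495 and 10401 normalised counts in WT and 24976, 38011 and 27341 in HIF-1αDM (log2 fold change 1.53 ± 0.18, adjusted p = 1.11e-05). GDF15, a stress-induced cytokine, rose from 405, 380 and 311 to 1143, 2234 and 1458 (log2 fold change 2.14, adjusted p = 4.33e-06). Both were called in all 6 leave-one-out fits. BAX, which permeabilises mitochondria in apoptosis, had 10166 to 11191 in WT and 13509 to 13974 in HIF-1αDM without being called (log2 fold change 0.38, adjusted p = 0.34). The 20 genes of proliferation and DNA replication had a median of -0.14 and the 18 of MYC-driven ribosome biogenesis a median of -0.20, with none called.

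Matrix genes were called in part. Of 25 tested collagens and matrix proteins, 3 were called higher, against 0.453% of all genes, and none lower, with a median of 0.31, against 0 over all genes. COL6A1, a chain of the beaded-filament collagen VI, had 9204, 12840 and 15822 normalised counts in WT and 26641, 34505 and 37406 in HIF-1αDM (log2 fold change 1.38 ± 0.26, adjusted p = 4.57e-03). COL5A2, a chain of the fibril-regulating collagen V, rose from 458, 607 and 635 to 1660, 2685 and 2531 (log2 fold change 2.02, adjusted p = 1.20e-05). BGN, the proteoglycan biglycan, rose from 7.43, 4.84 and 7.03 to 22.9, 51.7 and 58.6 (log2 fold change 2.76, adjusted p = 2.48e-03). COL5A2 was called in all 6 leave-one-out fits, COL6A1 in 2 and BGN in 1, COL6A1 and BGN losing the call without WT replicate 1 or 2 or HIF-1αDM replicate 2 or 3 and BGN also without WT replicate 3 (adjusted p up to 0.062 for COL6A1 and 0.028 for BGN). The list had 1 called member without WT replicate 1 or 2 or HIF-1αDM replicate 2 or 3. The most abundant matrix genes were not called: FN1, fibronectin, differed by 0.43 and COL4A2, a basement membrane collagen, by -0.02.

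Among the most abundant called genes were also secreted and lysosomal proteins. WNT7B, a Wnt ligand, rose from 1935, 3033 and 3048 to 6365, 6581 and 7772 (log2 fold change 1.37, adjusted p = 1.59e-03). FAM20C, the kinase of secreted proteins, and LTBP3, which holds latent TGF-β in the matrix, rose by 1.74 and 1.33. GAA, the lysosomal α-glucosidase, rose by 1.23, the membrane proteins FIBCD1 and STOM by 1.41 and 1.02, and the pentraxin receptor NPTXR by 1.34. FAM20C and NPTXR were called in all 6 leave-one-out fits, WNT7B in 4 (not without WT replicate 1 or HIF-1αDM replicate 3, adjusted p up to 0.027) and STOM in 2. LTBP3, GAA and FIBCD1 were called only without HIF-1αDM replicate 1. STOM lost its call without any 1 WT library or without HIF-1αDM replicate 2, and the highest adjusted p of these 4 genes in such fits was 0.034 for STOM, 0.052 for LTBP3, 0.028 for GAA and 0.090 for FIBCD1.

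Of the genes in the glycolysis and classic hypoxia lists, 1 was called against WT. GPRC5C, called above among the genes with RNA results in the study, is in neither list. None of 22 genes of glucose uptake and glycolysis was called (median -0.05, range -0.76 to 0.35), and of 26 other classic hypoxia genes 1 was called higher, with a median of -0.04. Over all genes 0.453% were called higher and the median was 0. The most abundant glycolysis genes, pyruvate kinase PKM and enolase ENO1, differed by -0.02 and -0.19. PGK1, a glycolytic kinase, had 36895, 25360 and 19518 normalised counts in WT and 27901, 19893 and 16268 in HIF-1αDM (log2 fold change -0.35, adjusted p = 0.86). ENO2, the neuronal enolase, had 4109, 3980 and 3452 against 2527, 2210 and 2070 (log2 fold change -0.76, adjusted p = 0.098). TGFA, a growth factor ligand of EGFR, had 8996, 9993 and 9496 against 13813, 17981 and 13347 (log2 fold change 0.66, adjusted p = 0.040). It met neither the fold nor the adjusted p threshold. NDRG1, an abundant member of the other hypoxia list, differed by -0.39.

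ANGPTL4, a secreted inhibitor of lipoprotein lipase, was the member of the classic hypoxia list called against WT. It rose from 106, 91.9 and 112 to 301, 361 and 333 (log2 fold change 1.68 ± 0.25, adjusted p = 2.12e-04), in all 6 leave-one-out fits. It was at 967, 1570 and 1467 in the HIF-1α line, above the HIF-1αDM libraries (log2 difference HIF-1αDM minus HIF-1α -2.01, adjusted p = 3.34e-06). In HIF-1α R30E it was at 521, 248 and 392, also called higher than WT (log2 fold change 1.90, adjusted p = 7.07e-06), and not called between HIF-1αDM and HIF-1α R30E (log2 difference -0.22, 95% interval -0.71 to 0.26). The rise was not particular to HIF-1α proteins, as ANGPTL4 was called higher than WT in the HIF-2α line too (4.27). HIF-2αDM, HIF-2α R27E and HIF-1β KIN lay at 1.08, 0.90 and -0.07, not called, and HIF-2α KIN was called lower (-1.58). The core ACGTG or GCGTG was found on either strand in 34 of the 76 promoters of called genes (44.7%), in 75.6% of the 41 promoters found for the glycolysis and classic hypoxia lists, in 61% of those of protein-coding genes tested and in 48.4% of all promoters. The stretch of the ANGPTL4 promoter that held the core (chr19:8363905-8363955 on GRCh38.p14, plus strand, 5′ to 3′) is shown because RNA of this gene was higher than in WT in the HIF-1αDM, HIF-1α and HIF-1α R30E lines. The capitals mark the core, which reads ACGTG on the other strand.
ANGPTL4: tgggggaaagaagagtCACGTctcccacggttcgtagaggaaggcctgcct

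Glycolysis and hypoxia genes were lower in HIF-1αDM than in the functional HIF-1α line. Of all genes, 37 were called higher (0.158%; 68, 0.29%, with the replicate block) and 283 lower (1.21%). Without HIF-1α replicate 1 or 2, or HIF-1αDM replicate 1 or 3, 19, 15, 16 and 21 were higher, and without HIF-1αDM replicate 1, 182 were lower. Of the 22 glycolysis genes 10 were called lower (7 to 9 when 1 library was left out), and of the 26 other hypoxia genes 13 were called lower (13 in each of the 6 fits), with medians of -0.93 and -1.15. Neither list had a member called higher. CA9, the pH-regulating carbonic anhydrase and a widely used HIF-1α marker, was named after its values were seen: it had 0, 2.90 and 0 normalised counts in WT, 1.00, 4.88 and 2.51 in HIF-1αDM and a mean of 4250 ± 366 (SD, n = 3) in the HIF-1α line. PTPRN, a receptor-type phosphatase of secretory granules, was at 1.95 or less in every WT and HIF-1αDM library and at 473, 397 and 316 in the HIF-1α line. PPFIA4, a liprin scaffold, had 59.8, 125 and 206 in HIF-1αDM and 4221, 2463 and 1874 in the HIF-1α line (log2 difference -4.45, adjusted p = 4.79e-06). ENO2 differed by -2.96 (adjusted p = 1.22e-09) and PGK1 by -1.81 (adjusted p = 4.94e-03). PGK1 was not called without HIF-1α replicate 1 or without any 1 HIF-1αDM library (adjusted p up to 0.057). EGLN3 had 12364, 15683 and 12297 in the HIF-1α line against 4095, 7367 and 5008 in HIF-1αDM (log2 difference -1.29, adjusted p = 1.17e-03), a call lost without HIF-1α replicate 2 or HIF-1αDM replicate 1 or 3 (adjusted p up to 0.021).

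**Figure D5:**
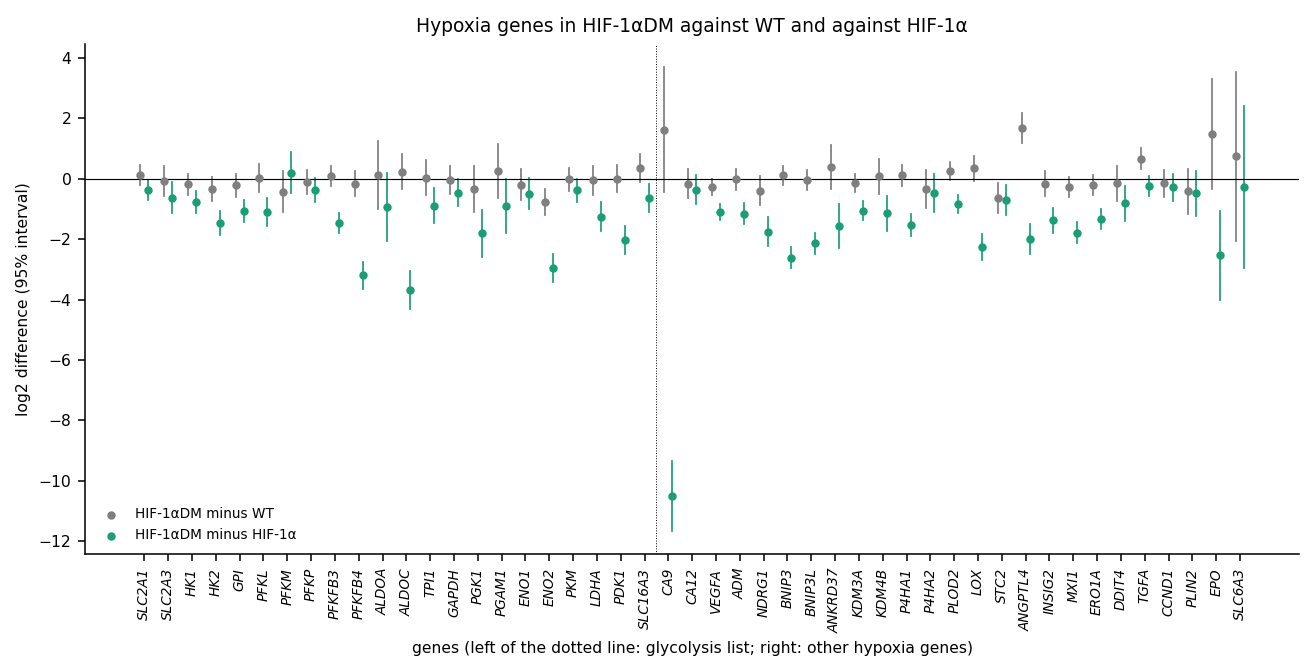
Log2 difference with its 95% interval for genes of the glycolysis list (left) and the other hypoxia list (right), as HIF-1αDM minus WT (grey) and HIF-1αDM minus HIF-1α (green). The grey points lie near 0 (list medians -0.05 and -0.04) with ANGPTL4 at 1.68, and the green points lie mostly below 0, with CA9 lowest, whose fitted difference rests on HIF-1αDM libraries of 4.88 normalised counts or less.

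Most genes higher in HIF-1αDM than in WT were not called between HIF-1αDM and HIF-1α. Of the 106, 82 were not called, 20 were called lower in HIF-1αDM (28 with the replicate block) and 4 higher, with a median difference of -0.60. Over all genes 1.21% were called lower and 0.158% higher. The difference had a 95% interval within a fold of 2 either way for 31 of the 106 and for 10321 of all 23410 genes. A larger difference was therefore not excluded for many of the genes not called. The 4 higher were OAS1, MX1, EPSTI1 and BICDL1, an adaptor of dynein transport. OAS1 was at 227, 128 and 93.8 in the HIF-1α line, MX1 at 205, 228 and 215, and EPSTI1 at 54.8, 36.1 and 39.2, all below every HIF-1αDM library, while in HIF-1α R30E MX1 was at 1149, 571 and 1046 and EPSTI1 at 169, 111 and 179. The log2 differences were 1.86 for OAS1, 1.13 for MX1 and 2.11 for EPSTI1 (adjusted p = 2.39e-03 for OAS1), but leaving out 1 library ended the call in 3 of 6 fits for OAS1, 4 for EPSTI1 and 5 each for MX1 and BICDL1, with adjusted p up to 0.033, 0.042, 0.074 and 0.061 for OAS1, EPSTI1, MX1 and BICDL1. The libraries concerned included HIF-1α replicate 2 and 3 for OAS1, EPSTI1, MX1 and BICDL1, HIF-1αDM replicate 1 for OAS1, EPSTI1 and MX1, HIF-1αDM replicate 3 for EPSTI1, MX1 and BICDL1, HIF-1α replicate 1 for MX1 and BICDL1, and HIF-1αDM replicate 2 for BICDL1. Among those lower in HIF-1αDM than in HIF-1α were the prostaglandin transporter SLCO2A1 (-3.34), BOC (-2.54), ITGA4 (-2.22) and WLS, which carries Wnt ligands to the cell surface (-2.22), each called in all 6 fits.

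MLPH, which links melanosomes and secretory vesicles to myosin, was the 1 gene called lower than WT (chr2:237485428-237555322). It had 25.6, 41.6 and 33.0 normalised counts in WT and 5.98, 5.85 and 3.35 in HIF-1αDM (log2 fold change -2.71 ± 0.46, adjusted p = 1.79e-03). The call was lost without WT replicate 2, HIF-1αDM replicate 2 or HIF-1αDM replicate 3 (adjusted p up to 0.022). In the HIF-1α line MLPH was at 669, 672 and 817, far above every WT and HIF-1αDM library (log2 difference HIF-1αDM minus HIF-1α -7.13). It was also high in the HIF-2α line, at 321 to 629. MLPH was at 1.35 or less in each HIF-1α R30E and HIF-2αDM library and at 0.963 or less in each HIF-2α R27E library. In the knock-in clones, which carry no transgene, it was at 0, 3.19 and 0.854 (HIF-1β KIN) and at 0 in each HIF-2α KIN library. The HIF-1αDM libraries lay between WT and all of these low libraries.

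HIF-1α R30E carries its substitution in the part of the protein that contacts DNA, and its dimerization residues are those of the functional protein. Between HIF-1αDM and HIF-1α R30E 42 genes were called higher (0.179%; 84, 0.359%, with the block) and 75 lower (0.32%; 143, 0.611%, with the block). Without HIF-1α R30E replicate 3 or HIF-1αDM replicate 1, 2 or 3, 34, 29, 38 and 48 were lower. EGLN3, the hydroxylase most strongly induced by HIF, had 4095, 7367 and 5008 normalised counts in HIF-1αDM and 1613, 1501 and 2154 in HIF-1α R30E (log2 difference 1.64, adjusted p = 2.45e-04), while WT had 5308, 5493 and 6577. NDRG1, a hypoxia-induced metastasis suppressor, had 18981, 30896 and 17303 in HIF-1αDM and 6626, 8493 and 8340 in HIF-1α R30E (log2 difference 1.52, adjusted p = 4.10e-04), with 26438 to 31864 in WT. DDIT4, an inhibitor of mTOR named after its values were seen, was the other hypoxia gene called higher than in HIF-1α R30E, 29628 ± 3726 against 10291 ± 2142 (SD, n = 3 each, log2 difference 1.53, adjusted p = 3.58e-03). EGLN3 and NDRG1 were called in all 6 leave-one-out fits and DDIT4 in 2 (not without HIF-1α R30E replicate 1 or 2 or HIF-1αDM replicate 2 or 3, adjusted p up to 0.037). VEGFA, the angiogenic growth factor, also named after its values were seen, had 12768, 13690 and 13953 in HIF-1αDM and a mean of 7284 in HIF-1α R30E (log2 difference 0.89, adjusted p = 2.68e-04), under the fold threshold. In both lists of hypoxia genes the median difference was above 0 (0.12 for glycolysis and 0.44 for the others), against 0.02 over all genes.

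Of the 106 genes higher in HIF-1αDM than in WT, none was called higher than in HIF-1α R30E (1 with the block), 23 were called lower (31 with the block) and 83 were not called, and the median difference was -0.81. Over all genes 0.179% were called higher and 0.32% lower, with a median of 0.02. BGN differed most, with 552, 506 and 922 normalised counts in HIF-1α R30E against 22.9 to 58.6 in HIF-1αDM (log2 difference -3.89, adjusted p = 9.58e-06). WLS was at 483, 447 and 428 in HIF-1α R30E (log2 difference -2.21), and the Rab effector RAB3IL1 and the aspartate acetyltransferase NAT8L differed by -2.41 and -2.29. WLS and BGN were called in all 6 fits, and NAT8L in 1, only without HIF-1α R30E replicate 2 (adjusted p up to 0.062). Against WT, NAT8L was not called without WT replicate 1 or 2 or HIF-1αDM replicate 2 or 3 (adjusted p up to 0.042), WLS and SLCO2A1 were not called without any 1 WT library, nor WLS without HIF-1αDM replicate 1 and SLCO2A1 without HIF-1αDM replicate 2 (adjusted p up to 0.028 and 0.036), and RAB3IL1 was called in none of the 6 fits (adjusted p up to 0.11).

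Few genes were called between the dimerization mutants of the 2 isoforms. Between HIF-1αDM and HIF-2αDM 1 gene was called higher (0.00427%) and 2 lower (0.00854%), with 445 and 253 at an unadjusted p under 0.05 (edgeR), 6 (0.0256%) and 7 (0.0299%) with the replicate block, and 6 and 9 with DESeq2. The gene higher was HIF1A, at 182, 187 and 210 normalised counts in HIF-2αDM, and EPAS1 was lower in HIF-1αDM, with 54273, 43759 and 47966 in HIF-2αDM. RHOD, a small GTPase of endosomes named here after its values were seen, was the third. Among the 106 genes, which the same HIF-1αDM libraries had chosen, the median difference was 0.26 and 105 were not called. A 95% interval within a fold of 2 either way held for 49 of the 106 and for 11505 of all 23410 genes. For the rest of the 105 the interval reached beyond a fold of 2, so a difference of that size was not excluded. Measured against the same WT libraries, the median log2 fold change of the 106 was 1.75 in HIF-2αDM, 2.59 in HIF-1α, 2.73 in HIF-1α R30E, 1.86 in HIF-2α and 1.69 in HIF-2α R27E. It was 0.05 in the HIF-1β KIN clone and 0.66 in the HIF-2α KIN clone, which carry tagged endogenous genes in place of a transgene. These values share the WT libraries that chose the 106 genes. In 97 of the 106 the WT mean was below the mean of each of the 6 transgene lines. HIF-1αDM, 1 of those 6, lay above WT by the choice of the genes, and the share over all genes was not counted. HIF-1αDM had the highest mean of the 9 groups in 4 of the 106.

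The remaining lists held few or no called genes against WT. None was called among 16 other bHLH-PAS factors (median -0.07), 10 targets of the aryl hydrocarbon receptor, another partner of HIF-1β (0.32), 18 heat shock and HSP90 genes (-0.09), 19 genes of the unfolded protein response (-0.17), 14 Notch genes (0.28), 20 cytokine and NF-kB genes (-0.06), 16 neuronal genes (-0.10) and 15 kidney and carcinoma markers (0.08). With the replicate block, named after their values were seen, the circadian factor NPAS2 (1.05 without the block, adjusted p = 1.67e-03 with it) and the tubule cadherins CDH6 and CDH16 (1.01 and 1.63) were called higher, and the activin chain INHBE lower (-1.53). HIST1H1C, a linker histone, was the 1 histone called, rising from 173, 180 and 143 to 453, 630 and 386 (log2 fold change 1.57, adjusted p = 5.32e-04). With the block HIST1H2AC and HIST1H2BK of the histone list were called as well. So were HIST1H2BD and HIST1H2AG, which are outside the list and were named after their values were seen. The 13 mitochondrially encoded transcripts all lay above 0 (median 0.76, range 0.50 to 1.19) with none called (MT-ND3 with the block). They took 0.094% to 0.21% of counts in WT and 0.21% to 0.37% in HIF-1αDM. Their part in the other results was not tested.

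Some of the other called genes are given here by role, chosen after their values were seen and without a test of the groups. Matrix and matrix-binding proteins were FBN1, the microfibril protein fibrillin (72.4 to 439 normalised counts as group means, log2 fold change 2.60), the collagen COL14A1 (1.38), the hyaluronan-binding TNFAIP6 (2.51), the membrane metalloprotease MMP16 (1.85) and the collagen receptor ANTXR1 (1.22). Secreted regulators were the neuregulin NRG2 (2.60), the matricellular CCN3 (2.41), the placental growth factor PGF (1.67) and the IGF-binding IGFBP4 (1.28). Adhesion and guidance proteins were the protocadherins PCDH1 (3.26) and PCDH7 (1.47), the ephrin receptor EPHB1 (1.87), the phosphatase PTPRS (1.86), SEMA6B (1.31), NTNG2 (1.65) and ESAM (1.59). Ion channels and transporters included the T-type calcium channel CACNA1H (3.75), the cation channel TRPV4 (2.02), the bicarbonate transporter SLC4A8 (2.04), the organic cation exporter SLC47A2 (2.92) and the haem transporter SLC48A1 (1.67). The lysosomal hydrolases SGSH and CTSH rose by 1.74 and 1.38. FBN1, TNFAIP6, MMP16, ANTXR1, NRG2, SLC4A8, SLC48A1, SGSH and CTSH were called in all 6 leave-one-out fits. CCN3, IGFBP4 and CACNA1H were called in 4 fits, losing the call without WT replicate 1 and, in the same order, WT replicate 2, HIF-1αDM replicate 2 and WT replicate 3 (adjusted p up to 0.041 for CCN3). EPHB1 and TRPV4 were called in 3, losing it without WT replicate 1, HIF-1αDM replicate 2 and, in the same order, WT replicate 3 and WT replicate 2 (adjusted p up to 0.032 for EPHB1). PCDH1, SLC47A2, PGF and SEMA6B were called in 2: all 4 lost the call without WT replicate 1 or 2 or HIF-1αDM replicate 2, PCDH1 and SLC47A2 also without WT replicate 3, and PGF and SEMA6B also without HIF-1αDM replicate 3 (adjusted p up to 0.066 for SLC47A2). COL14A1, PCDH7, PTPRS, NTNG2 and ESAM were called in 1, only without HIF-1αDM replicate 1 (adjusted p up to 0.12 for PCDH7). A set of 3 genes had 3 counts or fewer in every WT library, so only a lower bound holds: the steroid dehydrogenase HSD17B14 was at least 3.00-fold higher, the membrane protein XK at least 9.26-fold and the galectin LGALS9 at least 9.43-fold, against a floor of 3 counts per library. HSD17B14 was called in none of the 6 leave-one-out fits (adjusted p up to 0.063), XK was not called without WT replicate 2 or 3 or HIF-1αDM replicate 2, and LGALS9 was not called without any 1 WT library (adjusted p up to 0.025 for XK and 0.014 for LGALS9).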

How the data were processed

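Poly-A RNA-seq was analysed in 27 libraries of the first batch, 3 for each of 9 groups named by the titles; the 15 libraries of the second batch were not used here. The authors deposited raw counts per gene: STAR placed the reads on hg38, reads with more than 1 position were dropped, and the rest were counted on GENCODE v32 genes with HTSeq in union mode without strand. The submitters' processing notes name STAR 2.7, SAMtools 1.9 and HTSeq 0.11.1. Because strand was ignored and multiply mapped reads were dropped, counts of overlapping, antisense and near-identical genes are uncertain. ERCC spikes were added but are not used here.

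The tests used edgeR 4.0.16 with limma 3.58.1 under R 4.3.3. Genes with a mean normalised count of at least 0.5 were kept, TMM factors (0.944 to 1.07 in WT and HIF-1αDM) were computed, and all 27 libraries were fitted in 1 quasi-likelihood model by group. Calls needed a two-sided p, adjusted by Benjamini-Hochberg over all tested genes, no higher than 0.01 and a fold no smaller than 2. Intervals are 95%. Total counts ran from 42377599 to 101186554, and intervals cover the spread between libraries. Alternatives used DESeq2 1.42.0, other filters and scalings, fewer libraries, thinned counts and a GC correction. Scripts were tested on simulated data. Gene positions, length and GC content came from GENCODE v44 on hg38, matched by ID for 23316 of 23410 genes.

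The WT and HIF-1αDM libraries numbered 3 deviated together (correlation 0.39). For numbers 1 and 2 the correlations were 0.14 and 0.15, but HIF-1αDM replicate 2 with WT replicate 1 also had 0.14. Pairing of numbers 1 and 2 was therefore not shown. Other pairings had a mean of -0.11, but deviations were taken from each group's own mean, which pushes some pairings below 0. Values from a model that also holds the replicate number (the replicate block) are printed where a call changes. No library pair of a group agreed within sampling noise.

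The comparison and the gene lists were chosen with earlier results of these data known. Named genes were the HIF list and the genes with RNA results in the study, the 20 called genes of largest change with a mean count of at least 50 and no overlap, genes called lower, called members and the 2 most abundant members of each list, the 10 most abundant called genes, and the 5 called genes that differed most in each direct comparison. A few genes of the lists are counted in them but not reported here by name. Exceptions are said to be named after their values were seen.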

Additional observations from a re-analysis of the deposited data

Results flagged for a closer look

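The changes from WT of 3 genes differed between the HIF-1αDM and HIF-2αDM lines, by the direct edgeR test of the difference, in which WT cancels out. HIF1A was higher in HIF-1αDM by 3.54 on the log2 scale and EPAS1 lower, at -2.09. Both are the genes of the transgenes, whose reads they take up. RHOD was lower in HIF-1αDM, at -2.48 (adjusted p = 4.63e-03), with a mean of 52.5 ± 8.69 normalised counts (SD, n = 3) against 294 ± 45.0 in HIF-2αDM, 40.1 ± 11.7 in WT and 322 ± 118 in HIF-1α R30E. The call of RHOD was lost in 5 of 6 fits that left out a library, held only without HIF-2αDM replicate 3, and its adjusted p reached 0.12. Groups of 3 libraries are too small for a test of single outlying libraries.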

How the results depend on the processing

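The number of genes called in HIF-1αDM against WT depended on the fit, higher and lower in that order: 196 and 11 with the replicate block, 193 and 11 with DESeq2 (5013 adjusted p not given), 196 and 12 without a filter on low counts, 108 and 4 with filterByExpr, 78 and 1 with only the 2 groups fitted (69 of the 106 among them), 90 and 0 with counts thinned to the shallowest library, and 51 to 110 and 0 to 2 when 1 library was left out. A GC correction, chosen after seeing the data, gave 108 and 5, and with the replicate block 191 and 14. Against HIF-1α, 68 genes were higher with the block, 62 with DESeq2 and 15 to 46 without 1 library, when 182 to 257 were lower. Against HIF-1α R30E, 84 and 143 were called with the block, 69 and 140 with DESeq2, 27 higher with only the 2 groups fitted, and 29 to 33 and 29 to 58 without 1 library. Against HIF-2αDM, 6 and 7 were called with the block, 6 and 9 with DESeq2, and 1 to 2 each way without 1 library. The cause of these shifts was not tested, other than fewer libraries or genes. RLE size factors gave 106 and 1, and no libraries numbered 3 gave 96 and 1. Of the 106 genes, 43 were called in all 16 alternatives. All 106 kept their direction in these 16. Their HIF-1αDM and WT libraries did not overlap, so fits of the same libraries could hardly have reversed it.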
